A study of Mus musculus with 10 samples.

Results

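The 8 genes described here are a part of polyamine metabolism: the synthesis enzymes Odc1, Srm and Sms, the breakdown enzymes Sat1 and Smox, the antizymes Oaz1 and Oaz2, and the antizyme inhibitor Azin1. They were taken by gene symbol from the 17493 genes of the expression table, and the choice was made with earlier results of these data known. All 8 were found there and all 8 were among the 12535 genes tested. The cells were primary T cells from C57BL/6 mice. Naive CD4+ T cells from spleen were activated with plate-bound antibodies to CD3 and CD28 and with IL-6 (20 ng/mL) and TGF-beta (2.5 ng/mL), the conditions that make IL-17-producing Th17 cells, and were cultured for 48 to 72 h. In 2 libraries the cells had received TMP269, a selective inhibitor of the class IIa histone deacetylases, and in 2 they had received DMSO as the control. Both groups share the strain, the tissue and the cytokines, and neither the dose of TMP269 nor the exposure time is stated in the labels. Nothing in the labels ties the replicates to separate animals or cultures. The spread behind every p-value is thus that of these samples alone and may be technical.

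Polyamines (putrescine, spermidine and spermine) are small positively charged molecules that bind nucleic acids and are needed by dividing cells, activated T cells among them. Ornithine decarboxylase (Odc1) makes putrescine, spermidine synthase (Srm) extends it to spermidine and spermine synthase (Sms) extends that to spermine. Both synthases use an aminopropyl group from decarboxylated S-adenosylmethionine and release methylthioadenosine, which the methionine salvage pathway recycles. Antizymes bind Odc1 protein, block it and send it for degradation, and antizyme inhibitors hold antizymes away from it. On the way back, Sat1 acetylates spermidine and spermine for export or oxidation, whereas Smox oxidises spermine directly to spermidine.

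Recovered reads per library ranged from 20007042 to 25321455. The share of the ribosomal RNA gene Rn45s was 2.20% in DMSO replicate 2 and 0.716% to 1.12% in the other libraries, so that library stood apart. Values are given as normalised reads, the reads of a gene divided by the size factor of its library. They are not divided by gene length, so levels are compared between groups and not between genes. The T cell genes Cd3d, Cd3e, Cd3g, Cd4 and Lck summed to 30464 and 33073 normalised reads in DMSO and to 32277 and 33194 with TMP269, and 0 of these 5 were called. For scale, 27.5% of all tested genes were called, 12.8% higher and 14.7% lower. Of 4 Th17 markers, Il17a, Il17f and Ccr6 fell and Il23r was not called. All 4 had reads in every library. Markers of B cells were also present and moved with the compound: 3 of 5 fell, and their summed level went from 2114 and 2264 normalised reads in DMSO to 1446 and 1489 with TMP269. The B lineage factor gene Pax5 was at 193 and 232 normalised reads in DMSO and at 114 and 117 with TMP269, and none of the 5 was at 0. The myeloid markers summed to 32.6 to 39.6 normalised reads in DMSO and to 41.3 to 58.9 with TMP269, with Emr1 at 0 in DMSO replicate 2. The CD8 and NK cell markers summed to 311 to 402 in DMSO and 329 to 443 with TMP269. Most of that sum came from Cd8b1 (198 and 254 in DMSO, 217 and 293 with TMP269) and Cd8a. The NK receptor genes Ncr1 and Klrb1c reached at most 1.21 and 1.90 normalised reads, with Ncr1 at 0 in DMSO replicate 1 and TMP269 replicate 2. In bulk RNA, fewer cells of a type and less RNA per cell cannot be told apart, and the part of B cells in the changes below was not tested.

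With TMP269, transcripts of both aminopropyl synthases and of spermine oxidase fell and those of the acetyltransferase Sat1 rose. Odc1 and its antizyme regulators did not pass the test. The Sms call was the least stable, held in 9 of 17 other ways of processing the data, against 16 for Srm and 17 for Smox and Sat1. Of the 8 genes, 1 was called higher, 3 lower and 4 were not called (limma adjusted p under 0.05 over all tested genes). Across all tested genes 27.5% were called, 12.8% higher and 14.7% lower. The median log2 fold change of the 8 was -0.20, against 0.00 over all tested genes. It was -0.31 without DMSO replicate 1, -0.10 without DMSO replicate 2, -0.10 with equal library totals and -0.09 with a minimum value of 50, which drops Oaz1. In 5 of the 8 genes the TMP269 values did not overlap the DMSO values, which was so for 66.6% of all tested genes. Oaz1, with a low and uncertain count, is among these 5.

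**Figure D1:**
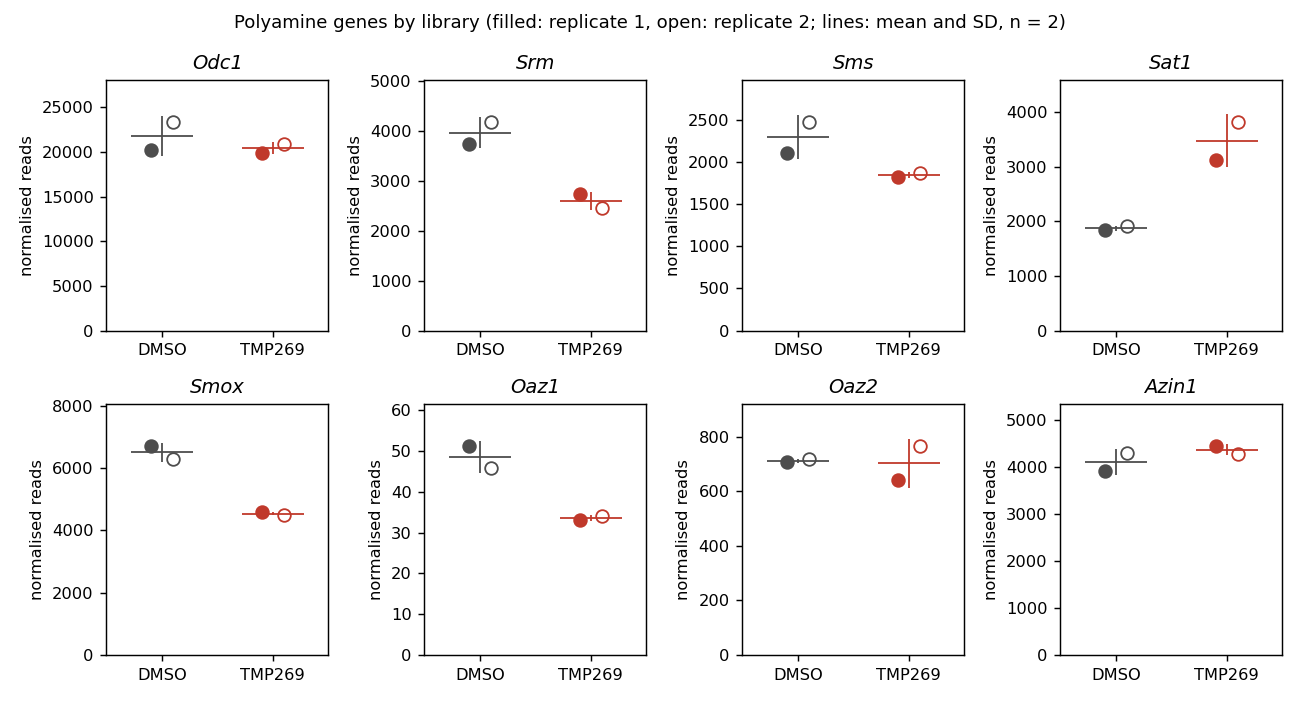
Normalised reads (y axis, from 0, a separate scale for each gene) of the 8 polyamine genes in DMSO and TMP269 libraries (x axis). Points are libraries, and lines are the mean and SD of 2 libraries. Srm, Sms, Smox and Oaz1 lie lower and Sat1 higher in both TMP269 libraries, and the groups overlap for Odc1, Oaz2 and Azin1.

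Odc1, which catalyses the committed step, had 20271 and 23426 normalised reads in DMSO and 19947 and 20883 with TMP269. The TMP269 values straddled the lower DMSO value, so the groups overlapped. The log2 fold change was -0.09 ± 0.10 (SE, limma adjusted p = 0.529), with a 95% interval of 0.795-fold to 1.10-fold. The interval thus leaves room for a modest change in either direction, but not for a fall of the size seen for Srm. The sign turned with the scaling, with a log2 fold change of 0.01 when library totals were made equal and 0.01 without DMSO replicate 2. Its recovered reads were 22529 and 19422 in DMSO and 19299 and 21987 with TMP269, so counting error was small beside the spread between libraries.

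Srm, the spermidine synthase, had the largest fall of the 8. It was at 3748 and 4189 normalised reads in DMSO and at 2728 and 2464 with TMP269. Both TMP269 libraries lay well below both controls. The mean went from 3969 ± 311 to 2596 ± 187 (SD, n = 2), to 0.654-fold (log2 fold change -0.61 ± 0.09, SE, limma adjusted p = 0.00212). The fall was present without any 1 library (limma log2 fold change -0.69 to -0.53). The call was narrowly lost when the variance was not allowed to depend on the mean level (limma adjusted p = 0.0509).

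Sms, the spermine synthase, fell by less. It was at 2108 and 2477 normalised reads in DMSO and at 1817 and 1871 with TMP269, so the groups were separate, but the DMSO libraries lay farther from each other than the nearest values of the groups did. The fold was 0.807 (log2 fold change -0.31 ± 0.09, SE, limma adjusted p = 0.0387). This call did not hold without DMSO replicate 2 (0.220), TMP269 replicate 1 (0.117) or TMP269 replicate 2 (0.0611), nor with equal library totals (limma adjusted p = 0.0971). RefSeq lists a pseudogene of Sms, so its count is uncertain where the counting could split reads between copies.

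Sat1, the acetyltransferase that starts polyamine export and breakdown, was the 1 member that rose. It was at 1843 and 1908 normalised reads in DMSO and at 3128 and 3824 with TMP269. Every TMP269 value was far above both controls, which lay close together. The mean went from 1875 ± 46.2 to 3476 ± 492 (SD, n = 2), a 1.84-fold rise with a 95% interval of 1.57-fold to 2.16-fold (log2 fold change 0.88 ± 0.10, SE, limma adjusted p = 8.43e-04). Over all 17 other ways of processing the data the log2 fold change lay between 0.74 and 1.03 and the call held.

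Smox, the spermine oxidase, moved the other way from Sat1. It was at 6711 and 6291 normalised reads in DMSO and at 4576 and 4505 with TMP269, with no overlap. The mean went from 6501 ± 297 to 4540 ± 50.2 (SD, n = 2), to 0.699-fold (log2 fold change -0.52 ± 0.08, SE, limma adjusted p = 0.00239), and the call held under all 17 alternatives. RefSeq places a second gene model, Gm30679, over Smox. Reads shared by the 2 could not be assigned here, because the authors' strand setting is not given in the sources used here. Paox, the oxidase that acts on the products of Sat1, was at 579 and 543 normalised reads in DMSO and at 453 and 402 with TMP269 (log2 fold change -0.39 ± 0.11, limma adjusted p = 0.0307). Its call was lost without DMSO replicate 1 (0.0987), DMSO replicate 2 (0.0616) or TMP269 replicate 2 (0.171) and with equal library totals (0.118). Paox overlaps Echs1, a mitochondrial enzyme gene, which was at 682 ± 4.07 and 567 ± 13.7 normalised reads (limma adjusted p = 0.0676).

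**Figure D2:**
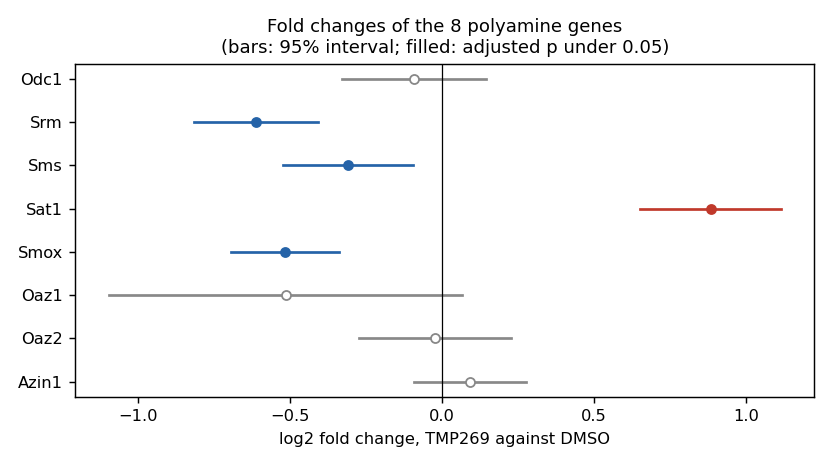
Log2 fold changes of the 8 genes, TMP269 against DMSO (x axis), with 95% intervals from limma. Filled points passed an adjusted p under 0.05, red higher and blue lower. Sat1 lies at 0.88, and Srm, Smox and Sms at -0.61, -0.52 and -0.31.

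The antizyme system did not pass the test in either direction. Oaz2 was at 706 and 718 normalised reads in DMSO and at 640 and 766 with TMP269, where the 2 libraries lay on either side of the controls (log2 fold change -0.02 ± 0.11, limma adjusted p = 0.891). Its sign turned without TMP269 replicate 1 (0.11) and with equal library totals (0.08). Azin1 was at 3907 and 4294 normalised reads in DMSO and at 4447 and 4279 with TMP269, which overlapped, and its 95% interval ran from 0.937-fold to 1.21-fold (limma adjusted p = 0.433). Neither interval reaches the size of the Srm fall or the Sat1 rise. Oaz3, an antizyme known from the testis, had 14 to 24 recovered reads per library (limma adjusted p = 0.325).

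Oaz1 was counted at a very low level: 57 and 38 recovered reads in DMSO and 32 and 36 with TMP269. Those are 51.3, 45.8, 33.1 and 34.2 normalised reads, with both TMP269 libraries lower (log2 fold change -0.52 ± 0.26, limma adjusted p = 0.165). The 95% interval, from 0.468-fold to 1.05-fold, was the widest of the 8 members. Oaz1 is a broadly expressed gene with a pseudogene, Oaz1-ps, listed in RefSeq. It also lists a pseudogene of Oaz2. How reads matching both copies were handled is not given in the sources used here, so the count of Oaz1 is uncertain, and so is every value here that rests on it. Azin2, the second antizyme inhibitor, appears in the table under its older symbol Adc. It was at 154 and 113 normalised reads in DMSO and at 225 and 168 with TMP269. The groups did not overlap, yet the test was not passed, with a log2 fold change of 0.56 ± 0.21 (limma adjusted p = 0.0781). It passed without DMSO replicate 1 (0.0257) or TMP269 replicate 2 (0.0175). RefSeq places the long non-coding gene Gm15904 over it.

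Apart from the 1 added to each value, which weighs most on low genes such as Oaz1, ratios taken within a library do not depend on its scaling. The log2 ratio of Sat1 to Smox reads was -1.86 and -1.72 in DMSO and -0.55 and -0.24 with TMP269, so Sat1 gained 2.64-fold on Smox. The log2 ratio of Odc1 to Sat1 went from 3.46 and 3.62 to 2.67 and 2.45, a 0.508-fold change of the ratio. Srm also lost ground to Sms, with log2 ratios of 0.83 and 0.76 in DMSO and 0.59 and 0.40 with TMP269. Smaller shifts were seen for Odc1 to Azin1 (-0.19 on the log2 scale), Oaz2 to Oaz1 (0.49) and Odc1 to Oaz1 (0.42), the last 2 resting on the low and uncertain Oaz1 counts. Leaving out DMSO replicate 1 took the shift of Odc1 to Oaz1 to 0.24, and leaving out DMSO replicate 2 took it to 0.60. In all 6 pairs the groups were separate. Single genes were separate in 66.6% of those tested, and the share for ratios of other gene pairs was not computed. The pairs are not independent, as several share Odc1, Oaz1 or Sat1. The two-sided exact permutation p was 0.333 for each pair, before and after adjustment over the 6 pairs. That is the smallest value that 2 against 2 libraries can give, so no pair could pass.

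**Figure D3:**
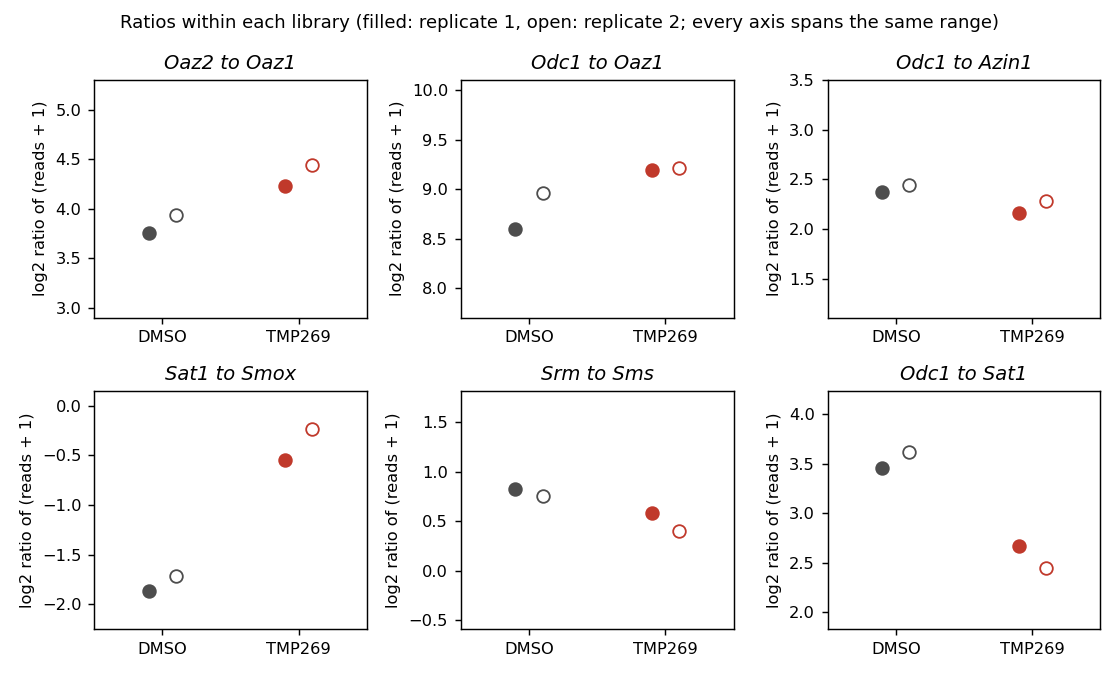
Log2 ratio of normalised reads plus 1 of 6 gene pairs within each library (y axis) in DMSO and TMP269 (x axis). All axes span the same range, so distances can be compared. The Sat1 to Smox ratio moves farthest, from -1.86 and -1.72 to -0.55 and -0.24.

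The promoters of 3 of the 4 called members, Sat1, Smox and Sms, are shown because these genes moved in opposite directions. No promoter sequence was available here for Srm or for Azin1. The sequences are the 250 bases before an annotated start in RefSeq, build GRCm38.p6, read 5′ to 3′ on the strand of the gene. Capitals mark GC boxes (GGGCGG or its reverse complement CCGCCC, the core of sites for SP1-type factors) and E-boxes (CACGTG, the core of sites for MYC and related factors). Sat1 (chrX:155216450-155216699, minus strand), Smox (chr2:131491612-131491861, plus strand) and the 2 annotated starts of Sms (chrX:157491369-157491618 and chrX:157492288-157492537, minus strand) read as follows.
Sat1: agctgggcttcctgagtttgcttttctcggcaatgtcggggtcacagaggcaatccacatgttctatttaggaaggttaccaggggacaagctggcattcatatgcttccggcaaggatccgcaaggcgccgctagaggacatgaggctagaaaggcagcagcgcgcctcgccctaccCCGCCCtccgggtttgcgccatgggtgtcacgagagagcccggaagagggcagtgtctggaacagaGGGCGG
Smox: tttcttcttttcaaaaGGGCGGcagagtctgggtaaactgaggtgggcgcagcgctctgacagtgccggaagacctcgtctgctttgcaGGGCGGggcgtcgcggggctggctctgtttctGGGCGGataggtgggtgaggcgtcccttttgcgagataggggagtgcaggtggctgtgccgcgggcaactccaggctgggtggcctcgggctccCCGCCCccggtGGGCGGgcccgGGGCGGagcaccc
Sms, first window: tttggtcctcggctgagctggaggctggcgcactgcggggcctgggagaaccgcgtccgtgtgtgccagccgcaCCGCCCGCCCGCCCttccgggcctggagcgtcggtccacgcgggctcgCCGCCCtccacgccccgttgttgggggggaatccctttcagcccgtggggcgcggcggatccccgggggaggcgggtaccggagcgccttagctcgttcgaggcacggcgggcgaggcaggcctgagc
Sms, second window: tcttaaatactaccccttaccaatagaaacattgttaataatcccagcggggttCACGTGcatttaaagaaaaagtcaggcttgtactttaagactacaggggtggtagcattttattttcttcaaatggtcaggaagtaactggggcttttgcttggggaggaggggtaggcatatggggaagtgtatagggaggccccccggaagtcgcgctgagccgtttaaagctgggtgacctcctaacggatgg

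The Sat1 window holds 2 GC boxes, and the Smox window holds 6, the most of the member windows. The first Sms window holds 4, of which 3 overlap in 1 run, and the second holds none. An E-box was found in 1 of the 7 windows of 6 members, the second of Sms. Srm and Azin1 had no window, and sequence outside the windows was not searched. Over the 32851 promoter windows in the reference table, 6.02% hold an E-box and 32.7% a GC box on either strand. GC boxes were found in 5 of the 7 member windows, those of the risen Sat1, of the fallen Smox and Sms, and of the uncalled Odc1 and Oaz2. The TATA box (TATAAA or its reverse complement TTTATA) was found in 0 of the 7 windows and in 12.4% of all windows. GC boxes were thus found in members that rose, fell and were not called, but not in the window of the uncalled Oaz1. A match of letters describes the sequence only. Myc, whose protein is known to bind E-boxes of polyamine genes, was at 8590 and 8471 normalised reads in DMSO and at 6956 and 6774 with TMP269 (log2 fold change -0.31 ± 0.08, limma adjusted p = 0.0176). That call was lost without TMP269 replicate 1 (0.0877) or TMP269 replicate 2 (0.124) and with equal library totals (0.0786).

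Genes that feed or use the polyamine pathway gave more falls than rises. Beside the 8 members, 29 genes of the pathway lists were tested, of which 1 rose, 11 fell and 17 were not called. Across all tested genes 12.8% were called higher and 14.7% lower. The median log2 fold change of these 29 was -0.23. With the members included it was again -0.23, and -0.13 with equal library totals. The lists were not tested as sets.

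The methionine cycle and salvage list held the most calls. Of its 9 tested genes, 6 fell, 0 rose and 3 were not called, with a median log2 fold change of -0.36. The share called lower over all tested genes was 14.7%. Mtap, which cleaves the methylthioadenosine that Srm and Sms release, was at 1474 and 1570 normalised reads in DMSO and at 973 and 926 with TMP269. The fall was to 0.624-fold (log2 fold change -0.68 ± 0.09, limma adjusted p = 0.00117), close in size to that of Srm. Later enzymes of salvage fell or did not pass. Enoph1, the enolase-phosphatase, fell to 0.662-fold, the isomerase Mri1 to 0.747-fold and the dioxygenase Adi1 to 0.779-fold. Got1, an aminotransferase that can return the salvage product to methionine, averaged 3266 ± 92.5 normalised reads (SD, n = 2) in controls and 2163 ± 150 in treated cells, a fall to 0.662-fold (limma adjusted p = 0.00176). Apip, the dehydratase that acts between Mri1 and Enoph1, was at 393 and 444 normalised reads in DMSO and at 321 and 378 with TMP269 and did not pass (log2 fold change -0.26 ± 0.13, limma adjusted p = 0.167). Ahcy, which clears S-adenosylhomocysteine, fell to 0.810-fold (limma adjusted p = 0.0354). The calls of Mtap, Enoph1 and Got1 held without any 1 library and with equal library totals. That of Mri1 was lost without TMP269 replicate 2 (0.0995) and with equal totals (0.0775). Adi1 was lost without DMSO replicate 2 (0.106), TMP269 replicate 1 (0.0671) or TMP269 replicate 2 (0.0646) and with equal totals (0.0627), and Ahcy without those same libraries (0.153, 0.261 and 0.0818) and with equal totals (0.0814). Mat2a and Mat2b, for subunits of the enzyme that makes S-adenosylmethionine, did not pass (limma adjusted p = 0.223 and 0.535). The log2 fold change of Mat2b was -0.11 and turned to 0.04 without DMSO replicate 2 and 0.03 without TMP269 replicate 1.

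Among 8 tested genes of ornithine and arginine supply, 3 fell, 0 rose and 5 were not called (median log2 fold change -0.20, or -0.09 with equal library totals). Over all tested genes 14.7% were called lower. Gatm, which transfers the amidino group of arginine in the first step of creatine synthesis and releases ornithine, had the largest fall of any pathway gene tested. It was at 1262 and 1347 normalised reads in DMSO and at 608 and 585 with TMP269, a change to 0.458-fold (log2 fold change -1.13 ± 0.09, limma adjusted p = 1.65e-04). Slc25a15, the mitochondrial ornithine carrier, was at 716 and 721 normalised reads in DMSO and at 488 and 448 with TMP269, a fall to 0.651-fold (limma adjusted p = 0.00345). Aldh18a1, which starts the synthesis of ornithine and proline from glutamate, went from 4009 ± 159 to 2721 ± 63.5 normalised reads (SD, n = 2), to 0.679-fold (limma adjusted p = 0.00169). These 3 calls held without any 1 library and with equal totals. The arginine transporter gene Slc7a1 (5920, 5925, 5486 and 5117 normalised reads in the order of the 2 DMSO and 2 TMP269 libraries) and the arginine synthesis gene Ass1 (3348, 3182, 3194 and 3240) were not called. The limma adjusted p was 0.157 for Slc7a1 and 0.858 for Ass1, and the log2 fold change of Ass1 turned from -0.02 to 0.08 with equal totals and 0.02 without DMSO replicate 1. The arginase genes Arg1 and Arg2, which make ornithine from arginine, were under the minimum value for testing, with at most 8.44 and 8.27 normalised reads in any library.

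Polyamine transport genes gave 1 rise in 5 tested, where 12.8% of all tested genes were called higher. Atp13a2, which moves polyamines out of lysosomes, was at 1304 and 1320 normalised reads in DMSO and at 1625 and 1688 with TMP269, a 1.26-fold rise (log2 fold change 0.34 ± 0.08, limma adjusted p = 0.0150, but 0.0846 without TMP269 replicate 2). Its paralogue Atp13a3 was at 6584 and 8283 normalised reads in DMSO and at 6189 and 6927 with TMP269 (limma adjusted p = 0.293, but 0.0343 without DMSO replicate 1). Slc3a2, a subunit of amino acid exchangers, was not called (limma adjusted p = 0.368).

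Spermidine is the substrate for hypusine, a modified lysine found in the translation factor eIF5A. Of 4 tested genes of this step, Eif5a itself fell and 3 were not called, where 27.5% of all tested genes were called in either direction. Eif5a was at 41922 and 48332 normalised reads in DMSO and at 31336 and 32958 with TMP269, 0.714-fold (log2 fold change -0.49 ± 0.12, limma adjusted p = 0.0159). The call was lost without DMSO replicate 2 (0.0652), TMP269 replicate 1 (0.137) or TMP269 replicate 2 (0.0615). Dohh, the hydroxylase that completes hypusine, was at 2093 and 1863 normalised reads in DMSO and at 1732 and 1554 with TMP269 (limma adjusted p = 0.0631, but 0.0485 without DMSO replicate 2). Eif5a2 was at 685 and 891 normalised reads in DMSO and at 603 and 615 with TMP269 (limma adjusted p = 0.0691, but 0.00814 without DMSO replicate 1). For Dhps, which carries out the first step, the values overlapped, with a 95% interval of 0.840-fold to 1.13-fold.

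**Figure D4:**
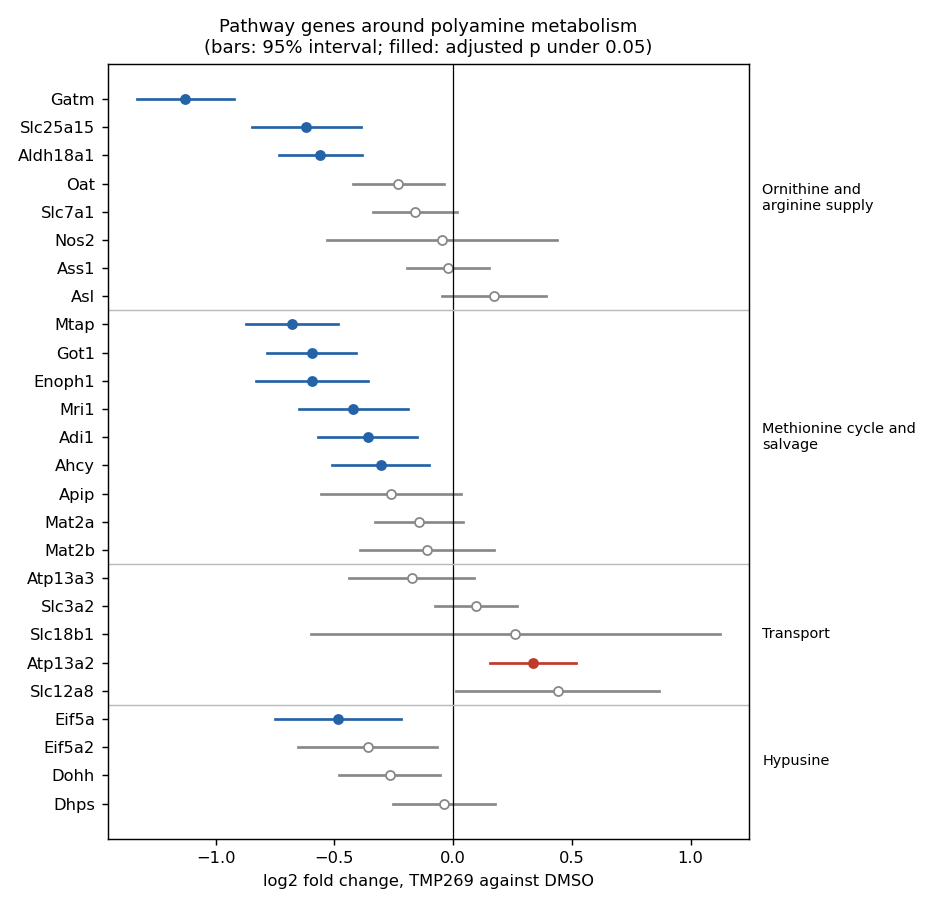
Log2 fold changes (x axis) with 95% intervals of the tested genes in the 4 supply, salvage, transport and hypusine lists (y axis). Filled points passed an adjusted p under 0.05. The blue points, lower with TMP269, are 3 genes of ornithine and arginine supply, 6 of methionine salvage and Eif5a, and the red point is Atp13a2.

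The genes whose values over the 4 libraries were most like those of Sat1 and Srm were found among 9522 genes with a mean of at least 100 normalised reads. The measure was the Euclidean distance between centred log2 values, and likeness over 4 libraries is a description. Closest to Sat1 were Dnah8, a dynein heavy chain gene (distance 0.0802), Gabarap, an autophagy gene (0.0890), and Fas, a death receptor gene (0.0924), with log2 fold changes of 0.85, 0.87 and 0.83. Closest to Srm were Bbs5, a gene of the cilium (0.0348), Naf1, an assembly factor for small nucleolar ribonucleoproteins (0.0361), and Cct6a, a subunit of the chaperonin (0.0579), with log2 fold changes of -0.63, -0.61 and -0.59. All 6 were called, which follows largely from picking them for likeness to called members. The call of Bbs5 (limma adjusted p = 0.0339) was lost whichever library was left out.

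Over 17 alternatives, Sat1 and Smox were called in 17, Srm in 16, Sms in 9, and the other 4 members in 0 (Oaz1 had a value in 16). Scaling to equal library totals shifted the median log2 fold change of all genes from 0.00 to 0.10. Higher genes then made up 67.3% of all calls against 46.5% with the authors' size factors. On that scale the members kept their order at the ends, with Sat1 at 0.99 and Srm at -0.51.

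**Figure D5:**
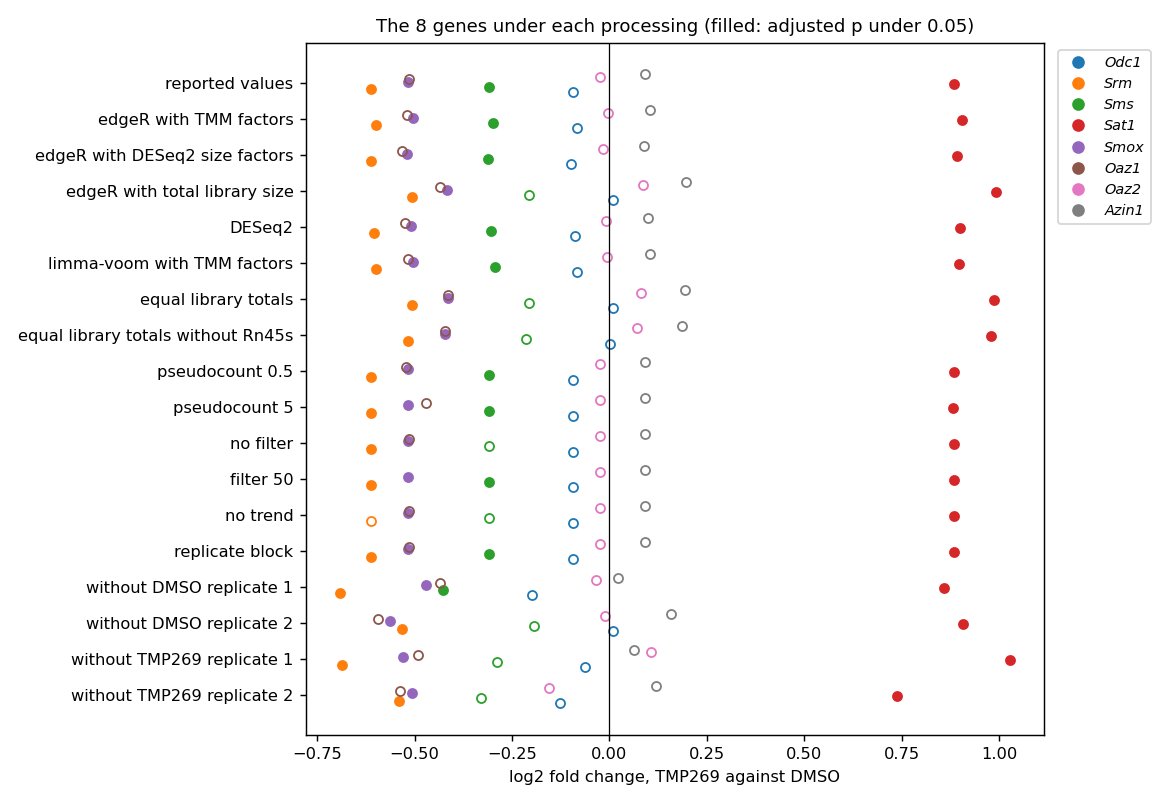
Log2 fold changes of the 8 genes (x axis, colours) under the reported processing and 17 alternatives (y axis). Filled points passed an adjusted p under 0.05. Sat1 stays between 0.74 and 1.03, and Odc1 stays between -0.20 and 0.01.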

How the data were processed

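Poly(A)-selected RNA was sequenced from 2 DMSO and 2 TMP269 libraries of mouse Th17 cells. The deposited values were a normalised signal, gene read counts divided by 1 size factor per library, as the values themselves show: 100% came back as whole reads, within 1e-06. The submitters' processing notes name build mm9 and, with no role for each, DESeq2, HTSeq, TopHat2 2.1.0, Bowtie2 and CASAVA 1.4. The 4 chromatin immunoprecipitation and 2 input libraries were not analysed here.

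Log2 values (pseudocount 1) of genes that reached 10 in 2 or more libraries were tested with limma 3.58.1 in R 4.3.3, two-sided, without covariates and with a variance trend over the mean level, with Benjamini-Hochberg adjustment over all tested genes. Fold changes are on that scale, which understates the change of low genes. The fit was also run on simulated reads, drawn independently for each library with the same relative spread for all genes. Fewer genes were changed there than were called here, so that run does not measure the error of these calls. On the recovered reads, edgeR 4.0.16 with TMM factors called 3406 genes. With 2 libraries a group an exact two-sided p is at least 0.333, so limma's p-values depend on pooling the variance over genes. Intervals are at 95%.

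The members, lists and alternatives were chosen with earlier results of these data known. Named genes are the 8 members, every called gene of 7 pathway lists with up to 2 uncalled genes of highest mean per list, Myc, and the 3 genes nearest in pattern to the called members with the largest rise and fall. Further genes (Oaz3, Apip, Echs1, Dhps, the arginases and markers) were named after their values were seen. RefSeq, assembly GRCm38.p6, was used for promoter sequence, synonyms, pseudogenes and overlaps. Amd1, Amd2 and Sat2 were not analysed here, and some marker genes are not reported here. Alternatives were other scalings, tools (edgeR, DESeq2 1.42.0, limma-voom), pseudocounts and filters, no trend, the replicate number as a block, and each library left out. Where that left 1 library in a group, its spread was assumed equal to the other group's.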

Additional observations from a re-analysis of the deposited data

How the results depend on the processing

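Of the 8 members, Sat1 and Smox kept direction and call under all 17 alternatives. For Srm the call was lost only without the mean-variance trend (log2 fold change -0.61, limma adjusted p = 0.0509). The Sms call was lost in edgeR with total library size (log2 fold change -0.21), with equal totals (-0.21), equal totals without Rn45s (-0.21), no filter (-0.31, adjusted p = 0.0550) and no trend (-0.31, adjusted p = 0.146), and on leaving out libraries its log2 fold change ran from -0.43 to -0.19. Odc1, not called, turned positive in edgeR with total library size (0.0086) and with equal totals (0.0098), equal totals without Rn45s (9.7e-04) and without DMSO replicate 2 (0.0098), with a range of -0.20 to 0.01 on leaving out libraries. Oaz2 turned positive under the same scalings (0.085, 0.080 and 0.071) and without TMP269 replicate 1 (0.11; range -0.15 to 0.11). Ass1 turned positive under them too (0.081, 0.083 and 0.074) and without DMSO replicate 1 (0.016; range -0.058 to 0.016), and Mat2b without DMSO replicate 2 (0.036) or TMP269 replicate 1 (0.033; range -0.26 to 0.036). Oaz1 had no value with a minimum of 50.

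Over all genes, 3448 were called. The count was 1063 without the trend, and 2078 to 3675 on leaving out libraries, lowest without DMSO replicate 2 and 2287 without TMP269 replicate 1. Members called lower were 3, and 1 without the trend. Over the pathway lists, members included, 2 genes rose and 14 fell. The falls numbered 9 in edgeR with total library size, 9 with equal totals, 9 when these excluded Rn45s, 7 without the trend (with 1 rise), and 8 to 15 on leaving out libraries, lowest without TMP269 replicate 2. The cause of these changes was not tested.

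The replicate number as a block gave 6360 calls over all genes and 5 rises and 21 falls in the pathway lists. It changed no call of a member. Deviations of same-numbered libraries correlated at r = 0.371 across genes, but with 2 pairs and no label that ties a number to a shared animal or day, the numbers were not taken to pair the samples. Depth limits Oaz1 most, at 32 to 57 reads.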
